A study of Mus musculus with 18 samples.

Results

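The genes described here are 10 genes of the inflammasome and of pyroptosis, read from the rows of the deposited count table with the names Nlrp3, Nlrp1b, Nlrc4, Mefv, Pycard, Casp1, Casp4, Casp8, Gsdmd and Ninj1. All 10 were found among the 21734 protein-coding genes of the table, and all 10 passed the filter on low counts that left 11357 genes for testing. They were followed across 18 RNA sequencing libraries of macrophages grown from mouse bone marrow (BMDMs), which fall into 6 groups of 3. The marrow came from mice of a mixed 129/B6 background aged 6 to 7 months, 3 of each genotype, and was cultured in M-CSF at 10 ng/ml for 8 to 9 days. The genotypes were wild-type (WT), miR-146a knock-out (KO) and 3F, in which the 3′ part of miR-146a, outside the seed, is exchanged with the strand it pairs with in the precursor. Resting cultures received fresh medium and the others fresh medium with LPS, the lipopolysaccharide of Gram-negative bacteria, at 1 ng/ml, and both were harvested after 16 h. The 6 cultures of a genotype thus came from 3 mice, and which culture came from which mouse is not given. The alleles are carried in the whole animal, and the labels do not give the ES cell clone, the sex or the 129 or B6 origin of other loci in each mouse.

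Inflammasomes are protein platforms that assemble in the cytosol of macrophages when a sensor such as NLRP3, NLRP1B, NLRC4 or pyrin detects infection or cell damage. The adaptor ASC links many sensors to caspase-1, which matures IL-1β and IL-18 and cleaves gasdermin D, whose fragments form pores in the plasma membrane, and NINJ1 then ruptures the dying cell. LPS acts on this pathway in a priming step, in which TLR4 signalling through NF-κB raises the transcripts of sensors and substrates, and miR-146a is known as a brake on that signalling. RNA levels report on priming and not on assembly, cleavage or pore formation.

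miR-146a and its 3F form share the seed that recognises targets, and their sequences are shown because the genotypes differ by them. The first is the RefSeq mature sequence (GRCm38.p6, chr11:43374435-43374456, minus strand), in which capitals mark the seed, nucleotides 2 to 8. The second is the strand of the synthetic 3F mimic designed by the study, without its added deoxythymidines, in which capitals mark the 8 bases that differ from the mature sequence, at nucleotides 13 to 20.

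miR-146a-5p: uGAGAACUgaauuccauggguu

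3F mimic: ugagaacugaauAAGUGUCC

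Of the 10 genes, Nlrc4 alone holds 7-base matches to this seed in its longest annotated 3′ UTR (Gencode M21), which is 1404 bases long. It holds 2 of them, each made of the 6 bases that pair with nucleotides 2 to 7 followed by an A. Among 11255 tested genes with a 3′ UTR, 20.6% held at least 1 match of 7 or 8 bases and 4.76% held at least 2. Both matches are shown with the bases around them, the match in capitals, on the minus strand of chromosome 17.

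Nlrc4 match at chr17:74426231-74426258: tgtatagaatatGTTCTCAcatgaaaag

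Nlrc4 match at chr17:74426214-74426241: cacatgaaaagcGTTCTCAgatttgaaa

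The cultures were macrophage RNA by their markers. The summed level of 8 macrophage genes was between 31800 and 87900 counts per 1000000 (CPM) in the 18 libraries, most of it Lyz2. The 9 neutrophil genes summed to between 13.6 and 67.9 CPM with Ly6g at 2 counts or fewer, and the T cell, B cell, erythroid, mast cell and fibroblast lists to at most 2.86 CPM. The 5 dendritic cell genes, nearly all of their sum from Itgax, were higher in KO, at 78.9 to 155 CPM at rest and 164 to 227 CPM with LPS against 39.4 to 60.0 and 36.7 to 41.1 CPM in WT. The macrophage sum was also higher in KO without overlap, at 60500 to 62400 against 31800 to 47800 CPM at rest and 71200 to 87900 against 45500 to 59900 CPM with LPS. The part of these marker levels in the differences between KO and WT given here was not tested. Total counts ran from 4071084, in resting 3F replicate 3, to 19818043. Resting KO replicate 3 stood apart, since the median level of 14 genes induced by interferon was 849 CPM there against 48.1 and 33.7 CPM in the other resting KO libraries. That median was between 5.81 and 18.5 CPM in the resting WT and 3F libraries and between 172 and 865 CPM in the libraries with LPS. Resting 3F replicate 3 also stood apart from its group, with a chi-square over degrees of freedom of 63.1 and 57.8 against the other resting 3F libraries, which gave 7.17 between them, while its interferon-induced median was 13.0 CPM. Calls that change, and stated extremes that move by over 1.5 times, without either library are therefore also given without it. CPM here are scaled by the TMM factors, and in bulk RNA a change in the number of cells of one kind cannot be told apart from a change in RNA per cell.

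**Figure D1:**
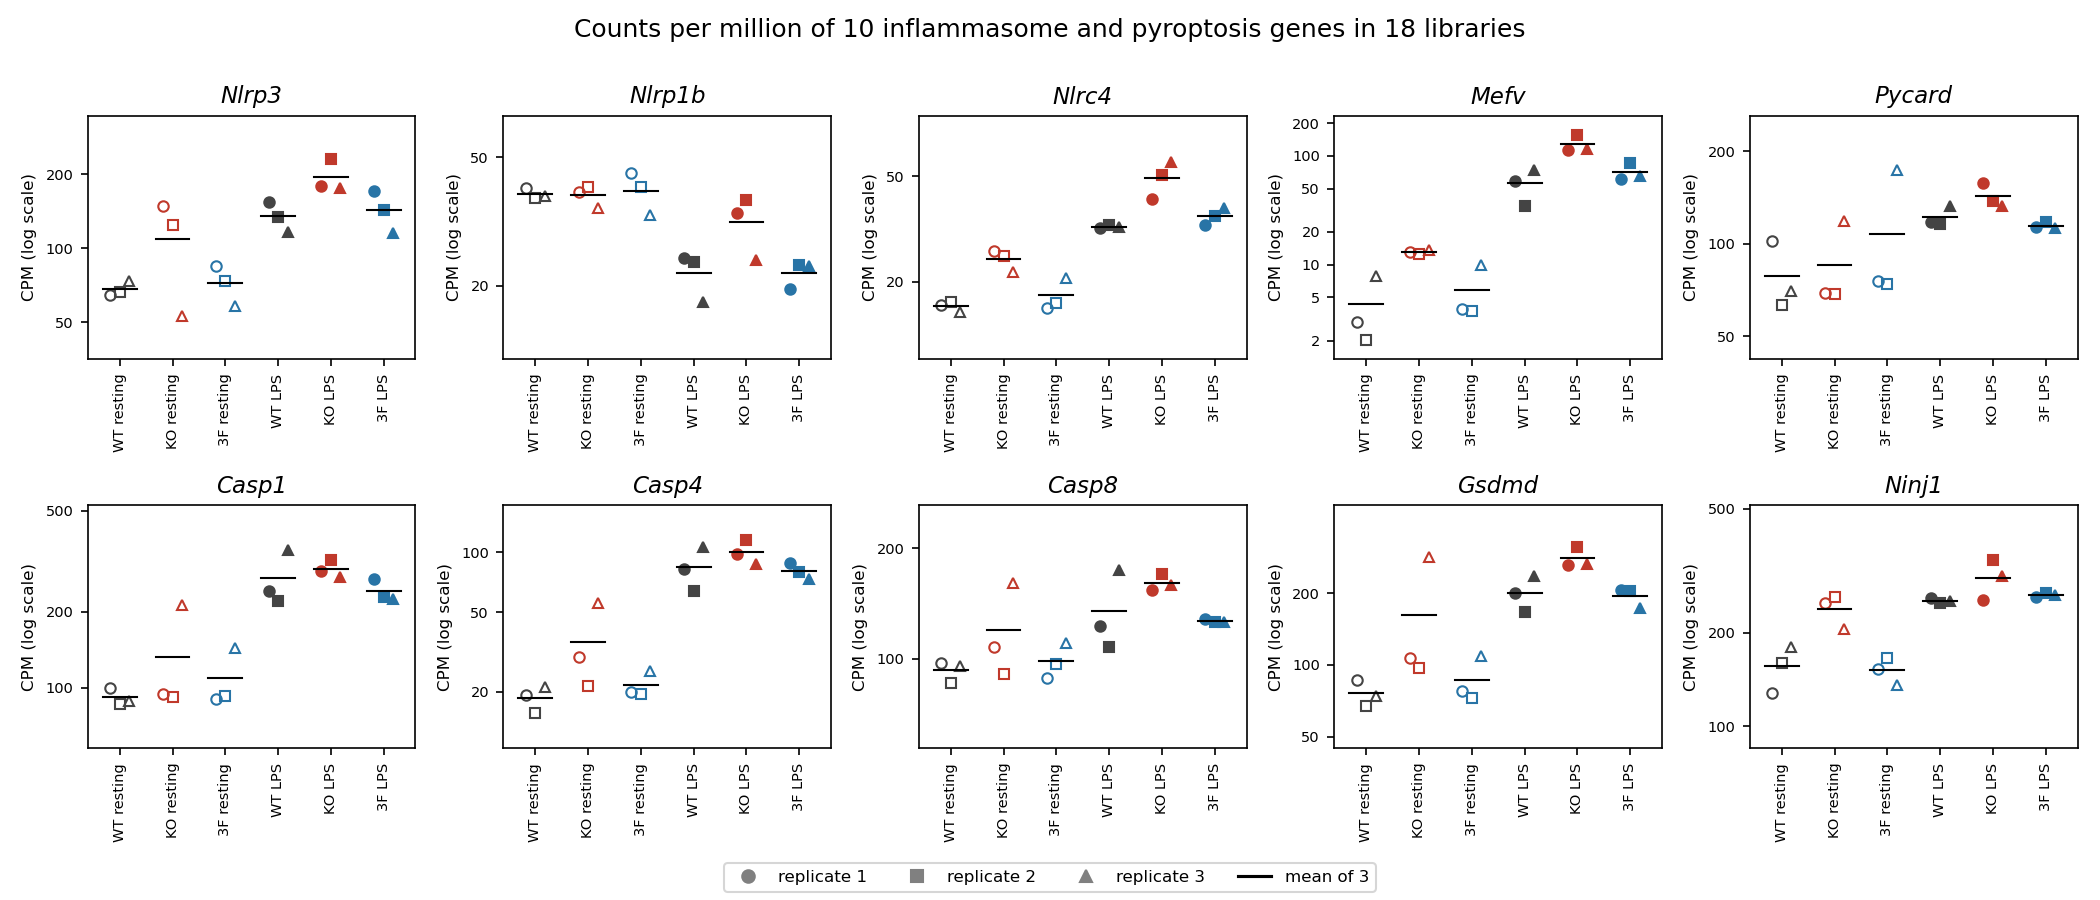
Level of each of the 10 genes in every library, in CPM on a log axis. Symbols are the 3 replicates, open for resting cultures and filled for cultures with LPS, and the line is the mean of 3. Mefv had the widest range, from 2.03 CPM in resting WT replicate 2 to 156 CPM in KO replicate 2 with LPS, and Nlrp1b is the gene whose WT and 3F points fall with LPS.

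Per kb of exon, Ninj1, the membrane rupture protein, and Casp1, the caspase of the canonical inflammasome, had the highest mean levels of the 10 genes in every group except resting KO, and Mefv the lowest in resting cells. In resting KO Gsdmd, at 91.7 ± 59.5 (SD, n = 3) per kb, stood above Casp1, at 88.6 ± 45.5, with spreads that overlap. In resting WT cells the mean level per kb was 114 ± 19.1 (SD, n = 3) for Ninj1, 61.2 ± 4.79 for Casp1, 42.7 ± 5.44 for Gsdmd and 32.1 ± 2.20 for Casp8. The adaptor Pycard followed at 20.6 ± 5.44, Nlrp3 at 16.8 ± 1.21 and Casp4 at 12.8 ± 1.94. Levels per kb use all annotated exon bases, which for Pycard are 3800, with a longest annotated 3′ UTR of 3004 bases. Its place in this order depends on that annotation, and which 3′ UTR these cells use was not tested. The other sensors were lowest, with Nlrp1b at 6.26 ± 0.255, Nlrc4 at 4.19 ± 0.192 and Mefv at 1.31 ± 0.967. Of the neighbours in this order, Pycard and Nlrp3 did not differ beyond their spread. With LPS the order at the ends changed, and Nlrp1b had the lowest WT level per kb, 3.57 ± 0.585, below Nlrc4 at 8.40 ± 0.114 and Mefv at 17.1 ± 6.15.

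The response to LPS asks how far each genotype primes these genes. In WT cells 8 of the 10 genes were higher with LPS and 1, Nlrp1b, was lower at an adjusted p under 0.05 (edgeR quasi-likelihood test, Benjamini-Hochberg over 11357 genes), where 28.5% of all tested genes were called in either direction. In KO cells 5 of 10 were higher and none lower, against 26.9% of all genes, and in 3F cells 7 were higher and 1 lower, against 31.2%. The median log2 fold change of the 10 genes was 0.99 in WT, 0.82 in KO and 1.00 in 3F, and that of all tested genes was 0.02, 0.02 and −0.01. The KO count depends on the libraries and settings. It was 8 without resting KO replicate 3, where 35.2% of all genes were called, and over the 6 libraries left out in turn it ran from 4 to 8.

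Among the sensors, Mefv had the largest rise of the 10 genes in each genotype. It encodes pyrin, which senses the inactivation of RhoA by bacterial toxins. Its resting WT libraries held 2.96, 2.03 and 7.93 CPM and the WT libraries with LPS 59.3, 34.6 and 74.6 CPM. The groups were far apart, with a log2 fold change of 3.75 ± 0.42 (SE) and an adjusted p of 8.75e-06 (edgeR). The rise was 3.29 ± 0.39 on the log2 scale in KO (edgeR adjusted p = 1.24e-05) and 3.81 ± 0.43 in 3F (7.85e-06).

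Nlrp3 encodes the sensor of potassium efflux and membrane damage, and its transcript is a standard readout of priming. It rose from 64.5, 66.4 and 73.8 CPM in resting WT to 155, 134 and 117 CPM with LPS, with no overlap. The log2 fold change was 0.99 ± 0.27 in WT (edgeR adjusted p = 0.012), 0.84 ± 0.27 in KO (0.0283) and 0.99 ± 0.27 in 3F (0.0116). These calls were narrow. The WT call was lost without WT replicate 1 with LPS (0.88, adjusted p = 0.0502), the KO call without KO replicate 2 with LPS (0.64, 0.17) or in the compared groups alone (0.79, 0.165), and the 3F call without resting 3F replicate 3 (0.82, 0.0611) or 3F replicate 1 with LPS (0.84, 0.0539). Without resting KO replicate 3, where Nlrp3 was lowest, the KO rise was 0.51 and still called (0.0397).

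Nlrc4 encodes the sensor that works with the NAIP receptors of flagellin and secretion systems. It rose in every genotype by nearly the same amount. Resting WT libraries held 16.3, 16.7 and 15.3 CPM and WT libraries with LPS 31.8, 32.7 and 32.2 CPM. The log2 fold change was 1.00 ± 0.13 in WT, 1.02 ± 0.12 in KO and 1.01 ± 0.13 in 3F, with adjusted p of 2.73e-05, 1.6e-05 and 2.41e-05 by edgeR. Each of these calls held under every alternative computed. Nlrc4 and Nlrp3 had the same fold rise within their errors over all libraries. They were also nearest to each other of all tested genes in their pattern over the 6 group means (root mean square difference 0.032, log2 scale). Their resting KO libraries differed, at 1.13, 0.88 and −0.36 above the WT mean for Nlrp3 and 0.70, 0.64 and 0.44 for Nlrc4. Without resting KO replicate 3 the KO rise of Nlrp3 was 0.51, while that of Nlrc4 was at least 0.915 with any 1 library left out. The pattern was not computed without that library.

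Nlrp1b, the sensor of anthrax lethal factor, was the only one of the 10 genes that fell. Resting WT libraries held 40.3, 37.4 and 37.8 CPM and those with LPS 24.4, 23.7 and 17.8 CPM, a log2 fold change of −0.81 ± 0.16 (edgeR adjusted p = 0.00129). In 3F the levels went from 44.7, 40.4 and 33.0 to 19.6, 23.2 and 23.1 CPM, a fold change of −0.86 ± 0.16 on the log2 scale (0.000854). In KO the resting levels of 39.1, 40.4 and 34.9 CPM and the LPS levels of 33.6, 36.9 and 24.1 CPM overlapped, and the log2 fold change of −0.28 ± 0.16 did not pass (0.213). That value ran from −0.46, without KO replicate 2 with LPS, to −0.11, without KO replicate 3 with LPS. It was called lower in 2 of 14 alternatives, with quality weights (limma voom, −0.37, 0.0176) and without the third resting KO and 3F libraries (−0.41, 0.0413). The difference between the KO and WT responses was 0.53 ± 0.22 on the log2 scale, with an unadjusted p of 0.029 and an adjusted p of 0.911 in the edgeR fit over all genes, so a smaller fall in KO was not established. Nlrp1b has the close paralogue Nlrp1a beside it, and the study counted only reads of high mapping quality, and reads that fit both genes equally well were not counted.

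**Figure D2:**
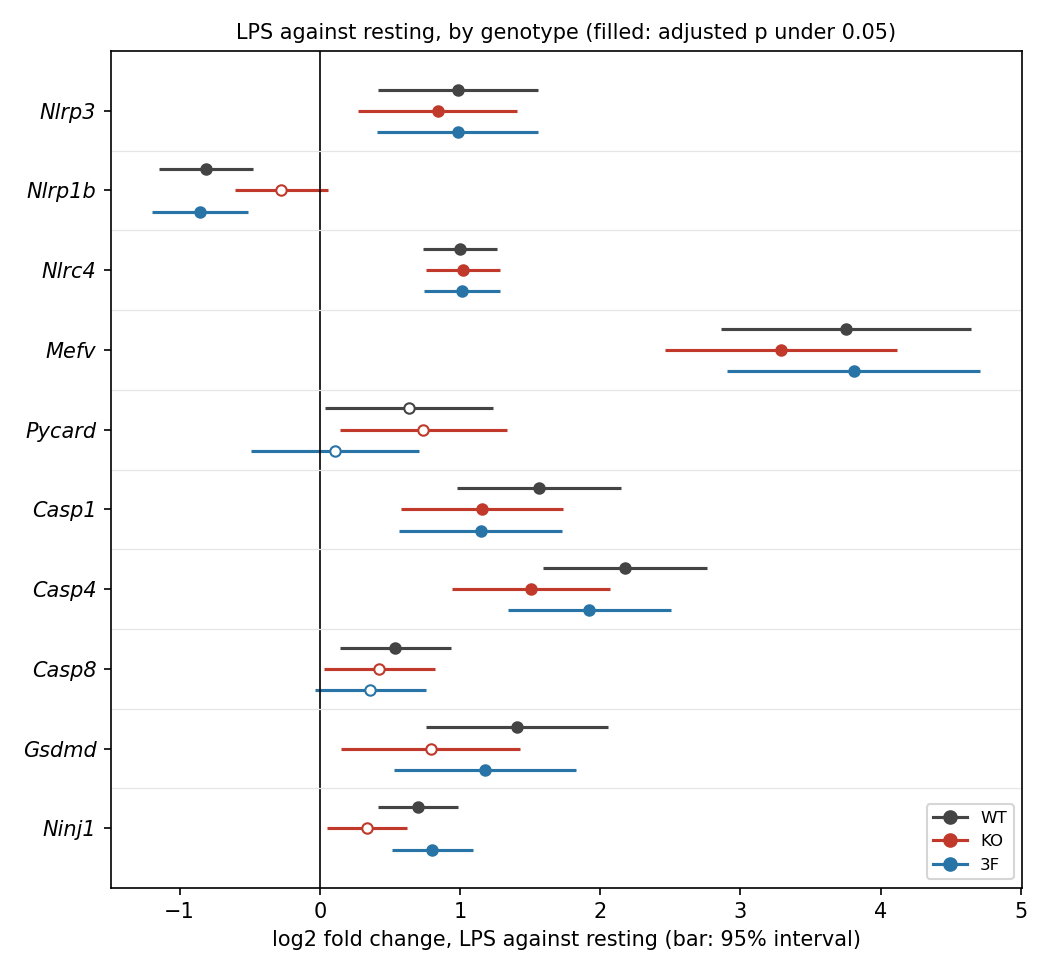
Log2 fold change of each gene with LPS against resting, with its 95% interval, in WT, KO and 3F. Filled points have an adjusted p under 0.05. Nlrc4 lies near 1 in all 3 genotypes, Mefv above 3, and Nlrp1b below 0 in WT and 3F with a KO interval that includes 0.

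The adaptor and the caspases differed among themselves. Pycard encodes ASC and was not called in any comparison of the main edgeR fit. Its levels were 102, 63.2 and 70.1 CPM in resting WT and 118, 116 and 133 CPM with LPS. Those groups did not overlap, with a log2 fold change of 0.64 ± 0.28 (edgeR adjusted p = 0.105). It was 0.74 ± 0.28 in KO (0.0636), and without resting KO replicate 3 this was 1.05 (0.00913). The KO rise was called in 6 of 14 alternatives, among them DESeq2 (0.70, 0.0444) and quality weights (limma voom, 1.04, 1.37e-06) with all libraries kept. In 3F the resting level of replicate 3, 174 CPM, lay above all of the libraries with LPS, at 114, 117 and 113 CPM, and the difference was 0.11 ± 0.28 (0.802). Without that library it was 0.58 (0.0534), and it was called with quality weights (limma voom, 0.59, 0.000488) and without the third resting KO and 3F libraries (0.58, 0.00611). Without resting 3F replicate 1 or 2 it was −0.09 or −0.10.

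Casp1 rose from 99.8, 86.4 and 88.6 CPM to 240, 221 and 351 CPM in WT, a log2 fold change of 1.56 ± 0.28 (edgeR adjusted p = 0.000549). In KO and 3F it rose by 1.16 ± 0.27 and 1.15 ± 0.27 on the log2 scale (0.00476 and 0.00481). Casp4 is the mouse gene of caspase-11, which binds cytosolic LPS directly in the noncanonical pathway, and it rose more, from 19.2, 15.6 and 21.2 CPM to 82.4, 63.7 and 107 CPM in WT. Its log2 fold change was 2.18 ± 0.27 in WT (2.77e-05), 1.51 ± 0.27 in KO (0.000526) and 1.92 ± 0.28 in 3F (8.46e-05). Casp8, the initiator of extrinsic apoptosis that can also cleave gasdermin D, changed least of the caspases. It went from 97.4, 85.6 and 95.7 CPM to 123, 108 and 175 CPM in WT, a log2 fold change of 0.54 ± 0.19 (edgeR adjusted p = 0.0397). That call was lost when any one of the WT libraries except replicate 2 with LPS was left out, and the lowest value was 0.31 (0.249), without WT replicate 3 with LPS. In KO its log2 fold change was 0.43 ± 0.19 (0.104), and without resting KO replicate 3 it was 0.70 and called (0.003). In 3F it was 0.36 ± 0.19 (0.152). Both were called with quality weights (0.64, 0.000196, and 0.43, 0.0056, limma voom) and without the third resting KO and 3F libraries (0.62, 0.00326, and 0.41, 0.0442).

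The executioners rose in WT and 3F. Gsdmd, the pore former, went from 86.3, 67.1 and 74.4 CPM in resting WT to 200, 166 and 237 CPM with LPS, a log2 fold change of 1.41 ± 0.31 (edgeR adjusted p = 0.00278), and in 3F the fold change was 1.18 ± 0.31 (0.00835). Ninj1 went from 128, 160 and 179 CPM to 258, 249 and 252 CPM in WT, by 0.70 ± 0.14 on the log2 scale (0.00113), and in 3F by 0.80 ± 0.14 (0.000367). In KO neither passed in the main fit. Gsdmd there gave 0.79 ± 0.30 (0.0636), which became 1.46 (1.32e-05) without resting KO replicate 3. It was called in 7 of 14 alternatives, among them DESeq2 (0.76, 0.0396) and quality weights (limma voom, 1.35, 4.29e-07) with all libraries kept. Ninj1 gave 0.34 ± 0.13 (0.0758), which was called only without KO replicate 1 with LPS (0.44, 0.0382).

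The LPS responses of the genotypes were compared directly. For KO against WT none of the 10 genes was called by edgeR, 1 had an unadjusted p under 0.05 (Nlrp1b), and DESeq2 and limma voom called none, with 0.00881% of all genes called. The differences ran from −0.67 ± 0.37 for Casp4 (95% interval −1.46 to 0.12) to 0.53 for Nlrp1b. Both Casp4 and Gsdmd, at −0.62, rested on resting KO replicate 3, and without it were −0.21 and 0.06. For 3F against WT none was called, none had an unadjusted p under 0.05, DESeq2 and limma voom called none, and 0% of all genes were called. Those differences ran from −0.53 ± 0.40 for Pycard (−1.38 to 0.32) to 0.10 ± 0.19 for Ninj1. The Pycard difference rested on resting 3F replicate 3 and was −0.03 without it, and that of Ninj1 was −0.01 without resting WT replicate 3 and 0.23 without resting WT replicate 1. Mefv had the widest intervals, from −1.61 to 0.69 in KO and from −1.18 to 1.29 in 3F.

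The comparison of KO with WT asks what the loss of miR-146a does to these genes. At rest 5 of the 10 were called higher in KO and none lower, where 9.40% of all tested genes were called in either direction: Nlrc4, Mefv, Casp4, Gsdmd and Ninj1. The median log2 difference was 0.60 for the 10 genes and 0.02 for all. Without KO replicate 3 the genes called at rest were Nlrc4, Mefv, Ninj1 and Nlrp3. The share of all genes called in that fit is not given here. The resting count was 1, 2 and 3 without WT replicate 1, 2 or 3, against 5.07%, 3.41% and 6.08% of all genes. With LPS only Nlrc4 was called, against 4.79% of all genes, and the median was 0.37 against 0.01, with all 10 estimates above 0.

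Nlrc4 was the gene called higher in KO in both states. Resting KO libraries held 26.2, 25.0 and 21.8 CPM, all above the 15.3 to 16.7 CPM of resting WT, a log2 difference of 0.60 ± 0.13 (edgeR adjusted p = 0.00854). With LPS the KO libraries held 41.3, 50.6 and 56.5 CPM against 31.8 to 32.7 CPM in WT, a log2 difference of 0.62 ± 0.12 (0.00839). The call with LPS held in all 12 alternatives, with adjusted p up to 0.0454, and the resting call in 12 of 13, failing in the fit of the compared groups alone (0.58, 0.0567). Its 3F levels were 15.9, 16.6 and 20.6 CPM at rest and 32.8, 35.4 and 37.8 CPM with LPS. The KO levels lay above those too, by 0.48 ± 0.13 at rest (0.0241) and 0.49 ± 0.12 with LPS (0.0356) on the log2 scale. The resting call was lost without KO or 3F replicate 1 or 2 (0.41 to 0.46, adjusted p 0.052 to 0.0731), and the call with LPS without any one of the libraries except KO replicate 1 (0.38 to 0.54, 0.0808 to 0.153).

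Mefv was higher in KO at rest, at 13.0, 12.5 and 13.6 CPM against 2.96, 2.03 and 7.93 CPM in WT. These were the most even of the KO levels, and resting KO replicate 3 was level with its group. The log2 difference was 1.65 ± 0.42 (edgeR adjusted p = 0.0216), and it was lost without resting WT replicate 1 (1.43, 0.101) or 2 (1.30, 0.104). The counts behind it were low, with 27 the smallest in any library. With LPS the KO libraries held 112, 156 and 115 CPM and the WT libraries at most 74.6 CPM. That log2 difference was 1.18 ± 0.35 (0.0644), with groups that did not overlap. It was called in 5 of 12 alternatives, at 1.10 to 1.24 (adjusted p 0.00135 to 0.0458), DESeq2 and limma voom among them, and in none of the 6 with a library left out (0.93 to 1.44, 0.0598 to 0.298).

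Ninj1 was higher in resting KO, at 248, 259 and 205 CPM against 128 to 179 CPM in WT, by 0.61 ± 0.14 on the log2 scale (edgeR adjusted p = 0.0103). The call was lost in 1 of 6 fits with a library left out, without resting WT replicate 1 (0.49, 0.0522). Nlrp3 was not called, at 149, 125 and 53.1 CPM in KO, where replicates 1 and 2 lay above every resting WT library and replicate 3 below all of them. Its log2 difference was 0.68 ± 0.27 (0.134), and 1.01 (0.00457) without resting KO replicate 3.

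**Figure D3:**
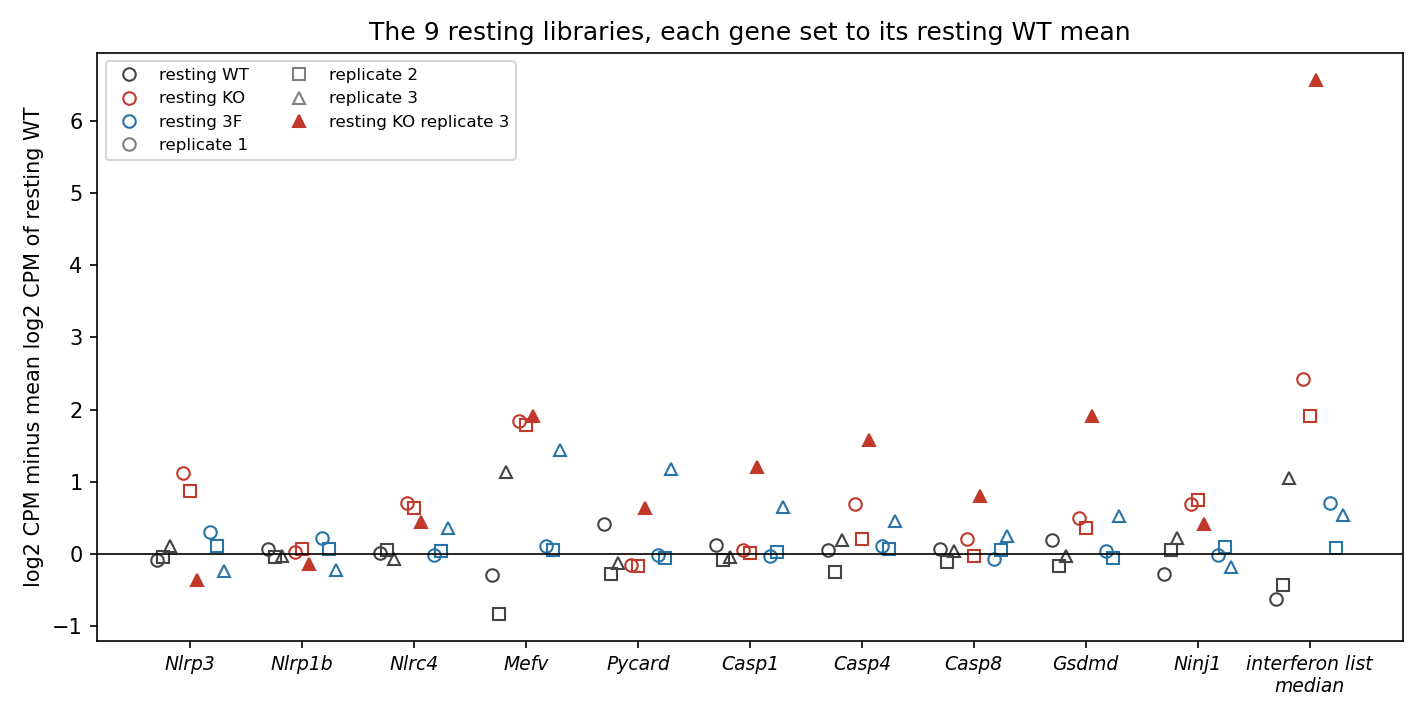
Log2 CPM of each gene in the 9 resting libraries, less its mean in resting WT, with the median of the 14 interferon-induced genes at the right. Colours are genotypes, symbols are replicates and the filled red triangle is resting KO replicate 3. That library lies 1.92 above WT for Gsdmd and 1.58 for Casp4, below WT for Nlrp3 at −0.36, and level with its group for Mefv at 1.91.

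The calls of Gsdmd and Casp4 rested on resting KO replicate 3. Gsdmd stood at 107 and 96.9 CPM in KO replicates 1 and 2 and at 285 CPM in replicate 3, against 67.1 to 86.3 CPM in WT. Its log2 difference of 1.10 ± 0.31 (edgeR adjusted p = 0.0333) was 0.43 (0.166) without replicate 3. It was also lost without any one of the WT libraries, at 1.02 to 1.20 (0.0662 to 0.123). Casp4 stood at 29.8, 21.3 and 55.4 CPM against 15.6 to 21.2 CPM, a log2 difference of 0.92 ± 0.27 (0.0435) that was 0.46 (0.221) without replicate 3 and 0.81 to 1.02 (0.0683 to 0.16) without one of the WT libraries. For Gsdmd and Casp4, KO replicates 1 and 2 also lay above all of WT, by less. Casp1, at 94.6, 91.9 and 211 CPM, and Casp8, at 107, 90.7 and 161 CPM, were highest in replicate 3 too, with KO replicate 2 within the range of WT. They were not called (0.53 ± 0.27, 0.254, and 0.37 ± 0.19, 0.253), and without replicate 3 the differences were 0.03 and 0.09. Those 4 genes were highest of all resting libraries where the interferon-induced genes were highest. Nlrp3, Nlrp1b, Nlrc4 and Ninj1 were at their lowest in KO there, and Pycard and, by little, Mefv at their highest in KO. The part of the interferon-induced state in these values was not tested. Nlrp1b and Pycard had log2 differences of −0.01 ± 0.16 and 0.12 ± 0.28.

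With LPS the other estimates were Nlrp3 at 0.53 ± 0.27 (edgeR adjusted p = 0.312), Nlrp1b at 0.52 ± 0.16 (0.0693) and Gsdmd at 0.48 ± 0.30 (0.45). Nlrp3 and Gsdmd had KO libraries that all lay above those of WT, while Nlrp1b overlapped at KO replicate 3 and was called without it (0.68, 0.0259), by DESeq2 (0.51, 0.0366) and with quality weights (limma voom, 0.44, 0.0366). Casp1, Casp4, Casp8, Pycard and Ninj1 differed by 0.12 to 0.25, each with an interval that included 0.

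The comparison of 3F with WT asks whether the 3′ part of miR-146a matters to these genes. None of the 10 was called at rest or with LPS by edgeR, DESeq2 or limma voom, and none had an unadjusted p under 0.05, where 0% of all genes were called at rest and 0.00881% with LPS. The median log2 difference was 0.15 at rest and −0.02 with LPS. At rest the estimates ran from −0.04 ± 0.14 for Ninj1 (95% interval −0.32 to 0.25) to 0.44 ± 0.28 for Pycard (−0.16 to 1.04). The latter came from 3F replicate 3, at 174 CPM against 75.6 and 73.7 CPM in the others, and was −0.07 without it. With LPS they ran from −0.17 ± 0.27 for Casp1 (−0.74 to 0.40) to 0.34 ± 0.35 for Mefv (−0.41 to 1.08). The interval for Nlrc4 ended at 0.39 in both states, below the KO values of 0.60 and 0.62. That for Ninj1 ended at 0.25 at rest, below the 0.61 of KO, and at 0.35 with LPS, which held the KO value of 0.25. With LPS the intervals for Nlrp3, Pycard, Casp1, Casp4, Casp8 and Gsdmd also held the KO value, as for Gsdmd, to 0.59 with 0.48 in KO. Those for Nlrp1b, Nlrc4 and Mefv with LPS did not. The KO values carry errors of their own, so this does not separate 3F from KO. Set directly against 3F with LPS, KO was called higher for Nlrc4. It was not called for Nlrp1b (0.52 ± 0.16, edgeR adjusted p = 0.0819) or Mefv (0.84 ± 0.35, 0.216).

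KO was also set against 3F, a comparison that shares the KO libraries with the one above. At rest 3 of the 10 genes, Nlrc4, Mefv and Ninj1, were called higher in KO, against 12.9% of all genes, and with LPS Nlrc4 alone, against 3.88%. Ninj1 was higher by 0.65 ± 0.14 on the log2 scale (edgeR adjusted p = 0.00875) and Mefv by 1.36 ± 0.43 (0.0453). Ninj1 alone was called without resting 3F replicate 1 or 2, against 15.7% and 12% of all genes. Without resting KO replicate 3, Nlrp3 was also called higher (0.92, 0.00873). The Mefv call was lost in 5 of 6 fits that left out 1 library, since it was kept only without resting 3F replicate 3, the 3F library with the highest resting level, 9.83 CPM against 3.90 and 3.77 CPM.

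**Figure D4:**
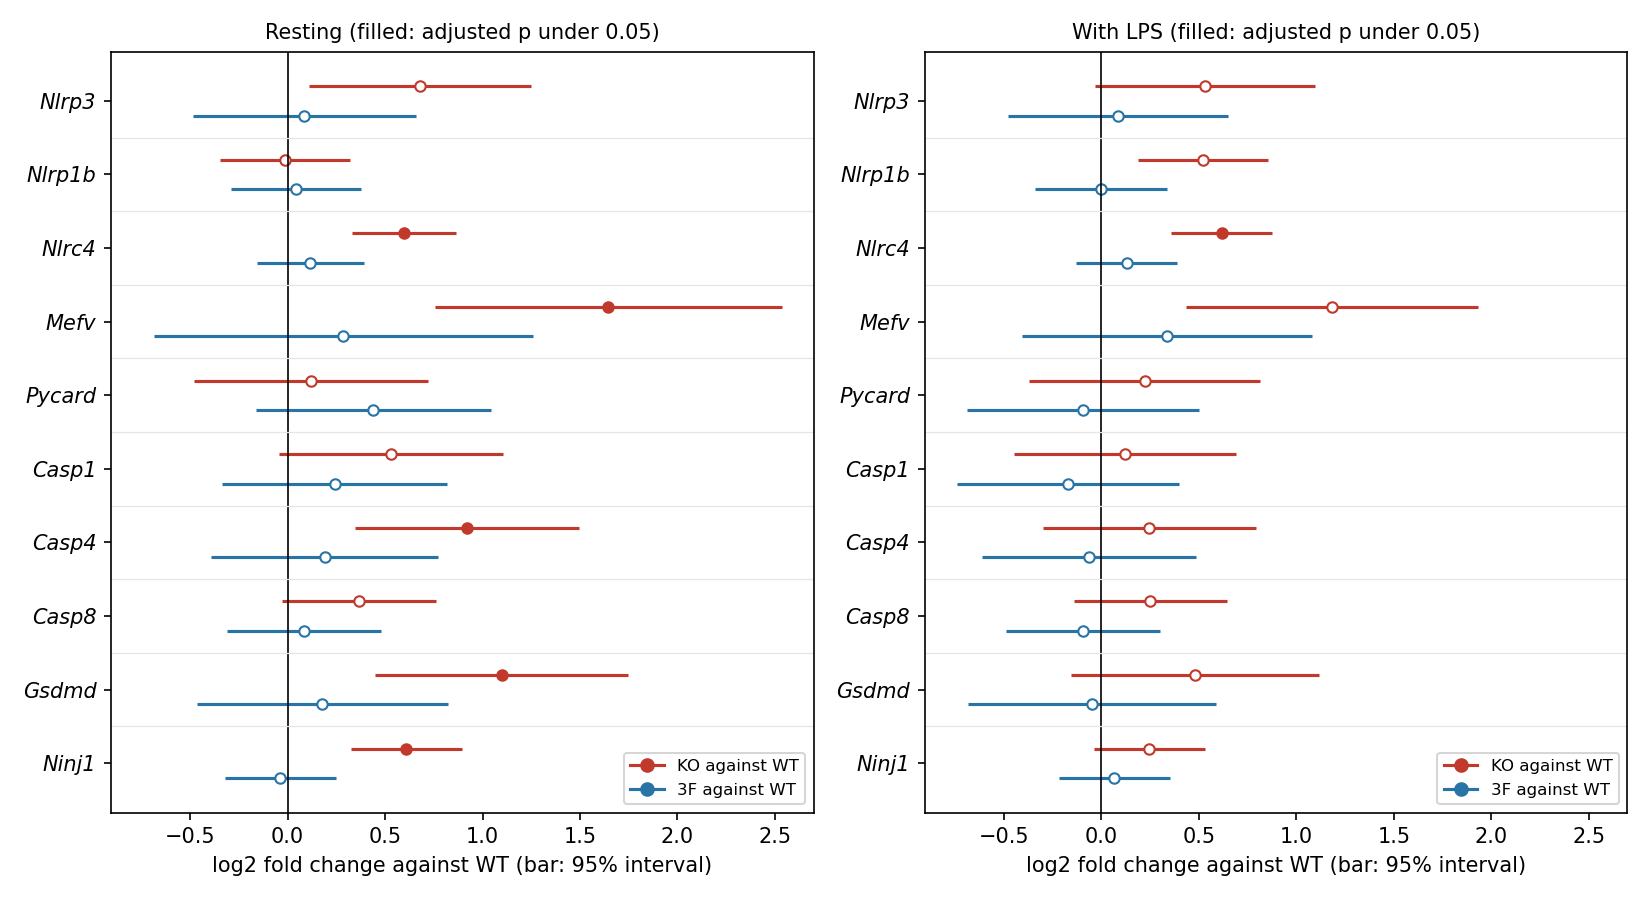
Log2 difference of each gene from WT in KO and in 3F, at rest and with LPS, with 95% intervals. Filled points have an adjusted p under 0.05. In KO 5 genes are filled at rest and Nlrc4 with LPS, and no 3F point is filled in either state.

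The wider pathway was read from a list of 43 other genes, of which 42 were found in the table and 38 tested. In WT 22 of the 38 rose with LPS and 1 fell, in KO 13 and 1, and in 3F 18 and 1. Of all tested genes 28.5%, 26.9% and 31.2% were called in either direction. Without resting KO replicate 3 the KO counts were 24 and 1 of 39 tested, in a fit where 35.2% of all genes were called. Without resting 3F replicate 3, Nek7 and Serpinb1a were also called lower in 3F. The cytokine genes Il1a and Il1b were called higher in each genotype. Il1b, the precursor of IL-1β, had WT levels of 2.17, 1.51 and 11.3 CPM at rest and 112, 53.4 and 122 CPM with LPS, and Il1a, the related alarmin, 0.328, 0.0753 and 0.290 CPM at rest, which are 5 counts or fewer, and 12.0, 9.28 and 20.1 CPM with LPS. Their log2 fold changes were 4.33 ± 0.77 and 5.84 ± 0.57 in WT (edgeR adjusted p = 0.000593 and 2.16e-06), 5.22 ± 0.77 and 6.15 ± 0.49 in KO (0.000107 and 1.98e-07) and 3.60 ± 0.75 and 5.61 ± 0.55 in 3F (0.00179 and 2.04e-06).

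Among the sensors on this list, Naip1, Naip2 and Naip5, the receptors upstream of NLRC4, rose with LPS in each genotype, and Naip1 rose most, by 2.71 ± 0.44 in WT, 2.13 ± 0.39 in KO and 2.83 ± 0.45 in 3F on the log2 scale (edgeR adjusted p from 0.000221 to 0.00067). The Naip genes are near copies of one another, and reads that fit more than 1 of them equally well were not counted, so their levels may be too low. Zbp1, a sensor of Z-form nucleic acid, and Gbp2, a guanylate-binding protein that opens the coat of Gram-negative bacteria, had the largest rises in WT and 3F, from 5.88 to 6.69 on the log2 scale. Gsdme, the gasdermin cleaved by caspase-3, was the one gene on the list called lower with LPS in each genotype, from 12.0, 13.3 and 6.19 CPM to 3.70, 5.73 and 1.91 CPM in WT, at −1.47 ± 0.37 (0.00672), −1.49 ± 0.37 in KO (0.00692) and −1.43 ± 0.38 in 3F (0.00929).

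In resting KO against WT, where 9.40% of all genes were called, 6 of the 38 were higher and none lower: Zbp1, Gbp2, Gbp5, Trim30a, Birc3 and Il18. The first 2 had the largest values, 5.54 ± 1.16 and 4.60 ± 0.96 on the log2 scale (edgeR adjusted p = 0.00798 and 0.00778), and their levels show where these came from. Zbp1 stood at 5.25, 3.29 and 115 CPM in the KO libraries and at most 1.26 CPM in WT, and Gbp2 at 63.2, 43.7 and 1202 CPM and at most 28.3 CPM in WT. Without replicate 3 the differences were 2.33 (0.0137) and 1.58 (0.0222). Birc3, Gbp2, Gbp5 and Zbp1 were then called higher and Naip5, Nlrp10 and Ripk3 lower. The share of all genes called in that fit is not given here. Without resting WT replicate 1 there were 4 called higher, against 5.07% of all genes, and without WT replicate 2 there were 2, Birc3 and Zbp1, against 3.41%. In the compared groups alone Birc3 was the only one, against 3.65%. Birc3, the ubiquitin ligase cIAP2 that restrains RIPK-driven death, was 0.90 ± 0.12 higher (0.000698) at 112, 98.5 and 81.9 CPM against 46.1 to 60.2 CPM.

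With LPS 2 of the 38, Il1a and Birc3, were called higher in KO than in WT, against 4.79% of all genes. Il1a stood at 49.6, 49.7 and 36.0 CPM against 12.0, 9.28 and 20.1 CPM, a log2 difference of 1.71 ± 0.34 (edgeR adjusted p = 0.00965). That call was lost without WT replicate 2 with LPS (1.49, 0.0663). Birc3 stood at 226, 234 and 216 CPM against 134 to 148 CPM, a difference of 0.65 ± 0.12 (0.00503). Il1b showed the same order, at 458, 562 and 332 CPM against at most 122 CPM, but 2.23 on the log2 scale did not pass (0.0639). No gene of the list was called in 3F against WT or in either comparison of LPS responses by edgeR, DESeq2 or limma voom. At an unadjusted p under 0.05 in edgeR there were 0 in each of these except the KO to WT response, with 5. Against 3F, the same 6 genes as against WT were higher in KO at rest, where 12.9% of all genes were called. None of them was called in the compared groups alone. Zbp1 and Gbp2 had log2 differences of 5.765 and 4.619 there with all libraries, and 2.545 and 1.598 without resting KO replicate 3. Without that library Nlrp10 and Pstpip1 were also called, both lower in KO. With LPS, where 3.88% of all genes were called, Il1a (1.39 ± 0.34, edgeR adjusted p = 0.0316) and Birc3 (0.52 ± 0.12, 0.0215) were higher. Nlrp10, an NLR without the ligand-sensing repeats, was lower there (−0.67 ± 0.18, 0.0477). All 3 of those calls were lost in 4 of 6 fits with a library left out, those without KO replicate 1 or 2 or 3F replicate 2 or 3 with LPS, and Il1a alone was called without 3F replicate 1 with LPS. Other settings called more. In the compared groups alone 13 of the list were higher and 3 lower, against 15.2% of all genes. With quality weights (limma voom) 9 were higher and 4 lower, against 16.2%.

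The genes nearest to each of the 10 in pattern over the 6 group means were found over all tested genes, as a description. Besides Nlrp3 and Nlrc4, which paired with each other, they were Il16 and Gm10762 for Nlrp1b (root mean square difference on the log2 scale 0.096 and 0.12), Tnfrsf9 and Gpr18 for Mefv (0.185 each) and Psma3 and Slirp for Pycard (0.045 and 0.053). Casp1 had Stoml1 (0.077) and 5730508B09Rik (0.09), Casp4 had Mcemp1 (0.053) and Slc15a3 (0.056), and Casp8 had Arid4a (0.029) and 2310033P09Rik (0.03). Gsdmd had Map3k8 (0.069) and Lst1 (0.071), and Ninj1 had Tnfrsf1a (0.037) and Tcirg1 (0.038). The second gene for Nlrp3 was Rfx5 (0.042) and for Nlrc4 Tank (0.065).

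Promoter windows of 300 bases, 250 before to 50 after the transcript start, were at hand for 9 of the 10 genes (RefSeq, GRCm38.p6) and are described because 9 of the genes were called with LPS in WT. They were searched on both strands for the interferon-stimulated response element core GAAANNGAAA, the gamma-activated site TTCNNNGAA and the κB consensus. None of the 9 genes had a match to the first or second, which are found in 3.44% and 8.3% of 32851 windows, and 2 had a κB match, found in 5.8%. Nlrp3 had 1, at 186 bases before the start of one of its windows, and Casp4 had matches at 93, 92 and 39 bases before the start, of which the first 2 overlap. Capitals mark the matches.

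Nlrp3 promoter, chr11:59541319-59541618, plus strand: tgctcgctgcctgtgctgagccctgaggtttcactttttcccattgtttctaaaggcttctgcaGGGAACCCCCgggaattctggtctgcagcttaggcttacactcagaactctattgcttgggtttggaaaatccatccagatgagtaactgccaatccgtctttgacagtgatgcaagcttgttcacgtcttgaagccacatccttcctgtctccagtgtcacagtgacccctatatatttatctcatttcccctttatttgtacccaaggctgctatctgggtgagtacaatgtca

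Casp4 promoter, chr9:5308599-5308898, plus strand: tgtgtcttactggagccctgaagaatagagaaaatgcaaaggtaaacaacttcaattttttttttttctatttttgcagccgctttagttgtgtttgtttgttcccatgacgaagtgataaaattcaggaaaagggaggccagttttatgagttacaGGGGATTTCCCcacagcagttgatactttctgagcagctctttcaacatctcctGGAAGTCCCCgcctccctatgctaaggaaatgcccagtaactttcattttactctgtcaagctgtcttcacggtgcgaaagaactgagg

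Nlrp3 (chr11:59541568-59566956) and Nlrp1b (chr11:71153102-71230733) lie on the chromosome of the miR-146a gene (chr11:43374397-43374461), 16.2 and 27.8 Mb from it. The other genes are at chr17:74425438-74459142 (Nlrc4), chr16:3707218-3718097 (Mefv), chr7:127989708-127993867 (Pycard), chr9:5298517-5307265 (Casp1), chr9:5308828-5336783 (Casp4), chr1:58795374-58847503 (Casp8), chr15:75862327-75867408 (Gsdmd) and chr13:49187485-49196244 (Ninj1), in the coordinates of GRCm38. Casp1 and Casp4 are neighbours on chromosome 9. Which strain's allele each mouse carried at these loci was not analysed here.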

How the data were processed

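RNA of 18 BMDM libraries was sequenced after depletion of ribosomal RNA, with strand kept. Per the study's methods and the submitters' notes, the authors trimmed adapters with cutadapt 1.8.3, removed ribosomal reads, aligned the rest to mm10 with HISAT2 2.1.0 and counted reads of mapping quality 50 or more per Gencode M15 gene, by strand, with featureCounts 1.5.3. The deposited values are raw counts for 21734 protein-coding genes with 1 blank row left out, and replicates were not pooled.

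Counts were filtered by filterByExpr with the 6 groups, scaled by TMM (0.812 to 1.15) and fitted over all 18 libraries by edgeR 4.0.16 quasi-likelihood in R 4.3.3 with a coefficient per group and no covariate. The 11 comparisons were two-sided, and the Benjamini-Hochberg adjustment ran over 11357 genes, with 0.05 as the threshold. SE is the log2 fold change divided by the root of F, and intervals are 95%. CPM are counts per 1000000 of TMM-scaled library size. Errors of means are SD over 3 libraries. Total counts of 4071084 to 19818043 put every one of the 10 genes at 27 counts or more in each library, and counting error alone is not the limit. The labels do not tie cultures to animals, so p-values measure the spread between these cultures. No pair of replicates agreed within counting error (chi-square over degrees of freedom 6.95 to 109). The procedure was tested on simulated data.

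The genes and lists were chosen with earlier results of these data known. The 10 genes are named whatever they showed. From the pathway list, each comparison names at most 2 called genes in either direction, those of the largest change with an average log2 CPM of at least 1, with the 2 genes nearest to each of the 10 in pattern. Other genes named were chosen after their values were seen. Alternatives were RLE scaling, no filter, DESeq2 1.42.0, limma 3.58.1 voom with quality weights, the compared groups alone, libraries left out and a replicate block. Seed matches used Gencode M21 3′ UTRs of the same build. The mature miRNA and proteome measurements were not used here.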

Additional observations from a re-analysis of the deposited data

How the results depend on the processing

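Percentages in this paragraph are the share of all genes called in the same fit, which moved with the settings too. The number of the 10 genes called in KO with LPS against resting (5, 26.9%) became 9 with quality weights (53.5%). It was 3 in the compared groups alone (22.9%) and 9 without the third resting KO and 3F libraries (44.2%). With 1 library left out it ran from 4 to 8. For KO against WT at rest (5, 9.40%) the count was 0 in the compared groups alone (3.65%). It ran from 1 to 5 with 1 library left out, the lowest without resting WT replicate 1 (5.07%). With LPS (1, 4.79%) it was 2 without a filter (2.78%), 3 by DESeq2 (8.66%) and 4 with quality weights (15.6%). It was 2 in the compared groups alone (9.46%), and 1 to 2 with 1 library left out. For KO against 3F at rest (3, 12.9%) it was 5 without a filter (6.58%), by DESeq2 (18.5%) and with quality weights (25.7%). It was 0 in the compared groups alone (0.146%), and 1 to 3 with 1 library left out. With LPS (1, 3.88%) it was 0 without a filter (2.22%), 2 by DESeq2 (7.06%) and 4 with quality weights (16.2%). It was 5 in the compared groups alone (15.2%), and 0 to 1 with 1 library left out. The WT (9) and 3F (8) responses stayed within 1.5 times under each alternative, and the 3F to WT comparisons and both comparisons of responses had 0 called under each. The cause of these differences was not tested.

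Some values changed sign without being called. Nlrp1b in resting KO against WT was 0.058 with quality weights and 0.069 without the third resting KO and 3F libraries, and −0.056 to 0.046 with 1 library left out. Without those 2 libraries Pycard was −0.17 in resting KO and −0.072 in resting 3F against WT, and Ninj1 0.033 in resting 3F. With 1 library left out, Pycard ran from −0.19 to 0.36 in resting KO against WT, from −0.071 to 0.671 in resting 3F against WT and from −0.62 to 0.19 in resting KO against 3F. Pycard in the 3F response ran from −0.104 to 0.577. Gsdmd in the response of KO against WT ran from −0.881 to 0.056, the latter without resting KO replicate 3, and was 0.018 without the third resting KO and 3F libraries. Casp1 ran from −0.005 to 0.355 in KO against WT with LPS and from −0.301 to 0.058 in 3F, and Ninj1 from −0.164 to 0.075 in resting 3F and from −0.011 to 0.228 in the response of 3F against WT. For all 110 values the alternatives gave 1560 estimates, which come from fits that share libraries and are not separate checks. Of these estimates 88 changed sign, and none of the 88 was called in either fit.

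Replicate numbers are shared by all groups, and the column names of the counts carry letters A to C that follow them in both states. For its small RNA libraries the paper explains such letters as identifiers of biological replicates of the culture. Neither the letters nor the numbers are said to mark an animal. Deviations of same-numbered resting and LPS libraries of a genotype correlated at 0.028 to 0.318, with 5 of 9 over 0.1, and 8 of 9 matched their own number best. That is a hint of shared animals from the data, but 4 of 9 were not over 0.1, a limit set for this check. Pairing was thus left undecided, and the main fit treats the cultures as unpaired. With a replicate block, in which a number is shared across genotypes, the count was 8 for the KO response, against 27.2% of all genes. Pycard (0.78, edgeR adjusted p 0.0376), Casp8 (0.46, 0.0429) and Gsdmd (0.89, 0.0298) became called there. For KO against WT with LPS that block gave 3, against 5.1% of all genes, with Nlrp1b (0.52, 0.0422) and Mefv (1.24, 0.0458) added. A block by number within each genotype added Gsdmd to the genes called in the KO response (0.97, 0.0319). No other count moved by over 1.5 times.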
